A study of Mus musculus with 5 samples.

Results

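The H/ACA box small nucleolar RNAs (snoRNAs) and the small Cajal body RNAs (scaRNAs) were read out of the Surface-seq counts of EL4 cells as all genes whose GENCODE symbol starts with Snora or Scarna and whose gene type is snoRNA or scaRNA. This gave 51 genes of the 55385 listed, 42 of them Snora and 9 Scarna, with 49 distinct symbols. Counts were found for 24 of the 51 genes, and 27 genes had 0 counts in all 5 libraries. EL4 is an established mouse T lymphoma line grown in suspension, and both groups of libraries came from cells of this line, whose membranes were coated onto polymer nanoparticles. In variation A (libraries A1, A2 and A3) the RNA was taken off the particles with phenol-chloroform, its ends were repaired, and both adaptors were then ligated. In variation B (libraries B1 and B2) the 3′ adaptor was ligated to RNA on the intact particles, so that RNA facing outward was the substrate, and the RNA was purified before the 5′ adaptor was added. The sample labels give the same ethynyl uridine imaging protocol for all 5 libraries, whereas the methods of Surface-seq describe no such labelling. Each variation has its own library preparation, so the RNA displayed and the way it was made into a library cannot be told apart here. The sample labels and the methods do not say whether the replicates came from separate cultures, so p-values measure the spread between these libraries, which may be technical.

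H/ACA snoRNAs guide the conversion of uridine to pseudouridine in ribosomal RNA, together with the enzyme dyskerin (Dkc1) and its partners Nop10, Nhp2 and Gar1. They fold into a pair of hairpins joined by the H box, a short single strand, and end with the ACA box a few bases before the 3′ end. Most are cut out of the introns of a host gene, often a gene for a ribosomal protein or a translation factor, and gather in the nucleolus. ScaRNAs do the same kind of work on the RNAs of the spliceosome in the Cajal body, a small nuclear body. They may be of the H/ACA kind, of the C/D kind, which guides ribose methylation, or a mixture of both.

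The sequences below are those of Snora31 and Snora23, which are among the 3 Snora genes with the highest count in library B1, of Snora57, which was high in a single library of variation A, and of Scarna9, which had the highest level per length in variation B. They are the GENCODE transcripts on GRCm38. Snora31 lies at chr14:75847905-75848034 on the plus strand, Snora23 at chr7:110046364-110046547 on the plus strand, Snora57 at chr19:8888538-8888685 on the minus strand and Scarna9 at chr9:15326264-15326333 on the minus strand. Each is a gene with 1 exon and no coding sequence. Snora31 lies within the gene Tpt1, Snora23 within Ipo7 and Scarna9 within Cep295, each on the strand of that gene, and no gene on its strand spans Snora57. In the Snora sequences the capitals mark 1 match to the H box (ANANNA in the middle 40% of the gene) and the ACA box. In Scarna9, a scaRNA of the C/D kind, they mark the C box (TGATGA) and the D box (CTGA).
Snora31: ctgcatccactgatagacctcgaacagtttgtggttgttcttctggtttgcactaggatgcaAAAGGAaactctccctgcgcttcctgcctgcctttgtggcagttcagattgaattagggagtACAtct
Snora23: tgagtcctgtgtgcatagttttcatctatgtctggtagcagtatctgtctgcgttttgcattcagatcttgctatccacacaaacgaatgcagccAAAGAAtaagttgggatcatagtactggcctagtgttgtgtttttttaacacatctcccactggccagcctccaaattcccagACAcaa
Snora57: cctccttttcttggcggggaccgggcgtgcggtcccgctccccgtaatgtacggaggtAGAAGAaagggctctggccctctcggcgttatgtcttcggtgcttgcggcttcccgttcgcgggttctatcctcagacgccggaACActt
Scarna9: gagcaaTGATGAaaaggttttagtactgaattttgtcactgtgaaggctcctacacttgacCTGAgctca

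The ACA box was found mainly in Snora genes, and the C and D boxes mainly in Snord genes. All searches were on the strand of the gene. The ACA box, searched as ACANNN at the very end of the annotated gene, was found in 35 of 42 Snora genes (83.3%), in 2 of 9 Scarna genes (2 of the 6 of the H/ACA or mixed kind) and in 0 of 98 Snord genes, the C/D box snoRNAs. The looser H box was found in 40 of 42 Snora, 6 of 9 Scarna and 47 of 98 Snord genes. The C box within the first 20 bases was found in 0 Snora, 4 Scarna and 70 Snord genes, and the D box within the last 20 bases in 5 Snora, 5 Scarna and 96 Snord genes. TGAG, the letters of the box that directs H/ACA scaRNAs to the Cajal body, was present in 8 of 9 Scarna and 19 of 42 Snora genes, and in 82 of 98 Snord genes, where the D box and the base beside it can overlap it. A match is a description of the letters and not of a site in use.

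The libraries of variation A held 1187117 to 4502174 counts and those of variation B 21862003 and 22980172. A gene with 3 counts therefore had a CPM (counts scaled by the total of the library) of 0.666 to 2.53 in variation A and of 0.131 to 0.137 in variation B. Library A1 stood apart in small nuclear RNA genes, which took 0.847% of its counts, against 12.1% and 13.1% for A2 and A3, and 1.18% and 0.632% for variation B. The summed CPM of 10 T cell markers was 504 to 649 in variation A and 1768 to 1870 in variation B, while that of 5 B cell markers was at most 1.11, that of 5 myeloid markers at most 5.79 and that of 4 erythroid markers at most 0.274. Of the defining markers, Ms4a1, Adgre1, Hba-a2, Hbb-bs and Hbb-bt were at 0 in every library, and Lyz2, a myeloid gene, was at 0 in variation A and had 73 and 133 counts in variation B. The CPM of the myeloid genes Csf1r and Cd68 was instead up to 1.68 and 1.30 in variation A and up to 0.229 and 0.732 in variation B, with B2 at 0 for both. Of the 10 T cell markers 9 were tested between the variations, of which 2 were called higher in variation B and 1 lower by edgeR, where 11.0% of all genes tested were called higher and 12.4% lower. Lyz2, which passed the filter through variation B alone, was called higher by edgeR (adjusted p = 0.0365), whereas DESeq2 called 0 of the myeloid genes. Whether this has a part in the results on guide RNAs was not tested.

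Most of the 27 genes without a count lie where the counting could not see them. The authors' counting gave a read to no gene when it touched the exons of more than 1 gene. For 22 of the 51 genes every base lies in an exon of another gene, and all 22 had 0 counts (the plot of counts against bases not shared). Among these 22, 8 are covered by a ribosomal protein gene, for example Snora33 by Rps12, Snora7a by Rpl32 and Snora64 by Rps2, and 7 by a small nucleolar RNA host gene, such as Snora44 and Snora61 by Snhg12. Snora75 is covered by Ncl, the gene of nucleolin, and Snora73a by Snhg3 and, on the other strand, by Gm17300. Snora73a and Snora73b are known for a role in cleaving the ribosomal RNA precursor and not as modification guides. For these genes a count of 0 is what the counting gives whatever the RNA present.

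Another 4 genes without a count keep 9 to 64 bases that no other exon covers, with 9 in Snora5c, 12 in Snora43, 14 in Scarna3b and 64 in Snora19. Snora35 was the only gene that shared no base with another exon and still had 0 counts in all 5 libraries. Its host Htr2c, a serotonin receptor gene, had 1, 0 and 0 counts in variation A and 17 and 18 in variation B. With 3 counts as the limit that a count of 0 allows, Snora35 could have reached a CPM of 2.53 in A3 and of 0.131 in B2 unseen. The other 17 of the 18 genes with no shared base were counted, as were 7 of 11 with some shared bases. Of the Snord genes, all 39 wholly covered genes were at 0 as well. Of their 55 uncovered genes 37 were counted, and 18 were at 0 although they share no base. Terc, the telomerase RNA, which also ends in an H/ACA domain, was at 0 in all 5 libraries and shares 397 of its 423 bases with another gene.

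**Figure D1:**
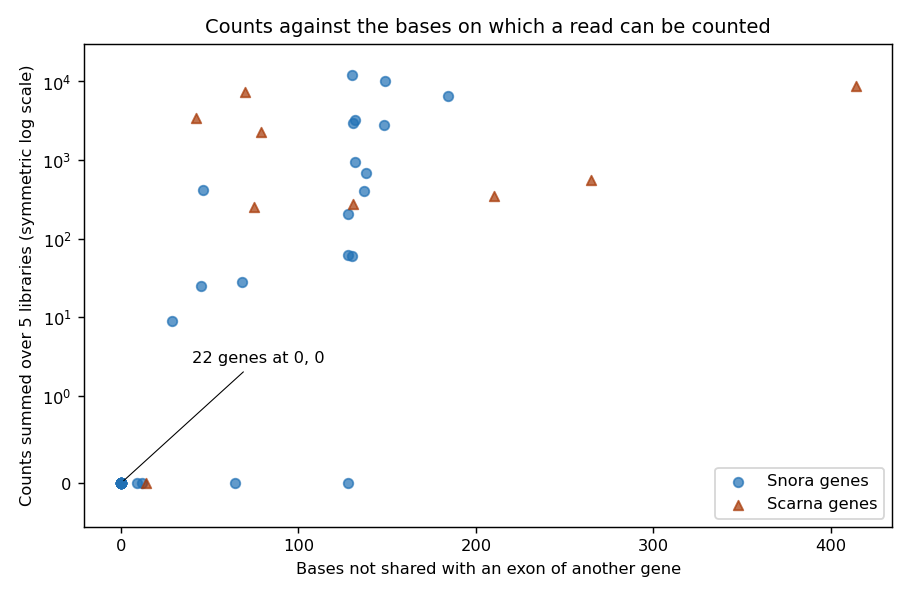
Counts summed over the 5 libraries (vertical axis, symmetric log scale) against the number of bases of the gene that lie in no exon of another gene (horizontal axis), 1 point per gene. The 22 genes with no such base all sit at 0 counts, and Snora35 is the only gene at 0 that shares no base.

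Reads over near-identical copies were left out too. Of the 24 counted genes, 11 share at least 1 run of 20 bases with another annotated snoRNA or scaRNA gene, so their counts are uncertain. The largest shares were 51 of 60 runs for Scarna17 with Gm25443, 74 of 111 for Snora30 with Gm25133, 66 of 113 for Snora41 with Gm23723, 62 of 118 for Snora21 with Gm23795 and 58 of 129 for Snora57 with Gm26132. Snora17 shares a run with 127 genes. Snora23, Snora62, Snora69, Scarna2, Scarna9 and Scarna10 share none.

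As a class, the 51 genes took a small part of every library and a larger one in variation B. Libraries A1 to A3 held 570, 3573 and 581 counts on these genes, and libraries B1 and B2 held 32119 and 26857. As a share of all counts this was 0.0248% for A1 (95% Wilson interval 0.0228% to 0.0269%), 0.0794% for A2 (0.0768% to 0.0820%) and 0.0489% for A3 (0.0451% to 0.0531%). In variation B it was 0.147% for B1 (0.145% to 0.149%) and 0.117% for B2 (0.115% to 0.118%). The intervals cover counting error only, because these reads carry no molecular identifiers and may be copies of the same molecule. Both libraries of variation B lay above all 3 of variation A. The mean share was 0.0510% ± 0.0274 in variation A (SD, n = 3) and 0.132% ± 0.0212 in variation B (SD, n = 2), a ratio of 2.58 (exact permutation test over libraries, two-sided, p = 0.1, which is the smallest p that 3 against 2 libraries allow). When ribosomal and mitochondrial RNA genes were left out of the total, the groups overlapped (p = 0.3, exact permutation test).

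Which genes held those counts differed between the variations (the plot of the makeup of the counts). Scarna2, a scaRNA of the C/D kind that guides methylation of the U2 small nuclear RNA, held 58.2%, 59.5% and 75.6% of the counts on the 51 genes in the libraries of variation A, and 9.44% and 10.2% in those of variation B. In variation B the first place went to Snora31, with 21.6% and 18.9%, followed by Snora62 with 17.6% and 16.3%. Snora57 held 24.2% in A2 alone and 2.99% to 5.85% in the other libraries. Without Scarna2 the mean share of counts was 0.0181% ± 0.0121 in variation A and 0.119% ± 0.0199 in variation B, a ratio of 6.56, and without both Scarna2 and Snora57 the ratio was 11.0. These ratios are on library totals too, where the median of all genes tested was also higher in variation B. The choice to leave out these genes was made after their values were seen.

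**Figure D2:**
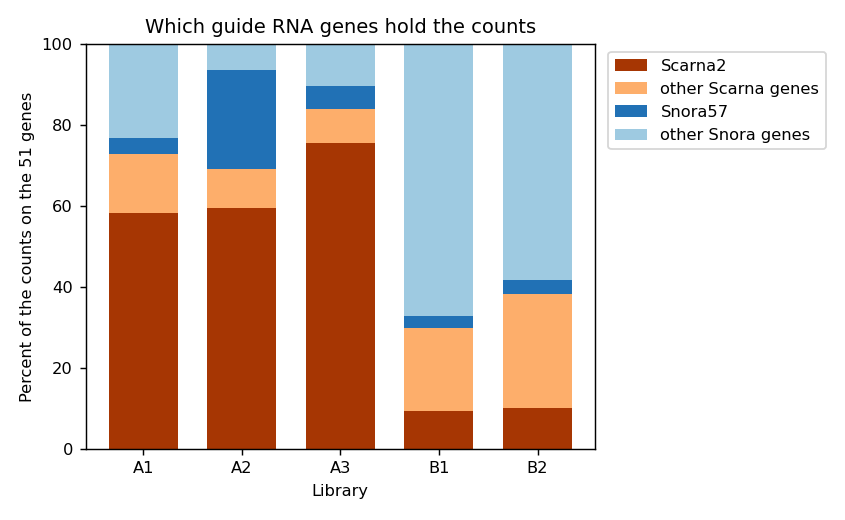
Percent of the counts on the 51 genes (vertical axis) held by Scarna2, the other Scarna genes, Snora57 and the other Snora genes in each library. Scarna2 fills 58.2% to 75.6% of the bars of variation A and 9.44% and 10.2% of those of variation B, and Snora57 stands out in A2 with 24.2%.

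The balance of scaRNA to Snora counts differed between the variations. The log2 ratio of summed Scarna to summed Snora counts was 1.42, 1.17 and 2.37 for A1 to A3, and -1.23 and -0.70 for B1 and B2. The groups did not overlap and differed by -2.62 (exact permutation test, p = 0.1). With Scarna2 left out the difference was -0.29 and the groups overlapped (exact permutation test, p = 0.5). With only the scaRNAs of the H/ACA kind it was -1.82, without overlap (exact permutation test, p = 0.2), and with those of the H/ACA and mixed kinds -0.31, with overlap (exact permutation test, p = 0.8). These choices of genes were made after seeing the data. Against C/D box snoRNAs, the log2 ratio of Snora to Snord counts was -4.87, -1.98 and -3.34 for A1 to A3, and -4.76 and -5.19 for B1 and B2. These groups overlapped (difference -1.58, exact permutation test, p = 0.3), and without Snora57 the difference was -0.61. It was -0.86 without A2 and -2.31 without A1, and -1.82 without overlap when Snora31, the most counted gene, was left out.

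Gene by gene, 20 of the 24 counted genes passed the filter on low counts and were tested with all other genes. A gene was called when edgeR's quasi-likelihood test gave an adjusted p under 0.05, adjusted by Benjamini-Hochberg across the 10287 genes that were tested, and a fold change above 2. Of the 20, 10 were called higher in variation B and 1 lower, where 11.0% of all genes tested were called higher and 12.4% lower. Of the 20, 8 reached the level of the filter on library totals only through variation B, namely Snora34, Scarna10, Scarna3a, Snora69 and Snora41, which were called higher, and Snora47, Snora20 and Scarna8, which were not called. Among the other 12, 5 were called higher and 1 lower. These counts and the medians below are thus a description of the genes that passed. The median log2 fold change of all 20 was 1.39, against 0.05 over all genes tested. The 8 that passed through variation B alone ran from 0.34 (Scarna8) to 9.47 (Snora34), which raises this median. The other 12 ran from -2.98 (Scarna2) to 3.87 (Snora23), and their 2 middle values were -0.82 (Snora21) and 0.97 (Scarna9). The 12 Snora genes had a median of 2.24 with 7 called higher and 0 lower by edgeR (2 were lower at an unadjusted p under 0.05, and DESeq2 called 0 lower), and the 8 Scarna genes had a median of 0.66 with 3 called higher and 1 lower. The 38 tested Snord genes had a median of 2.44 with 29 called higher, by edgeR as by DESeq2. Both libraries of variation B lay above all of variation A for 12 of the 20 genes and below all for 1, on CPM scaled by TMM (edgeR's scaling, which sets the middle of the genes equal), where this held for 31.2% of all genes tested in the upward and 26.7% in the downward direction. On CPM of library totals the median of all genes lay 1.50 higher in variation B on the log2 scale, whereas the fold changes below are on the TMM scale. Beside the fold changes, gaps in CPM are therefore wider for genes that rose, narrower for Scarna2, and of the other sign for Scarna6 and Snora21. In bulk libraries such as these, more particles with an RNA and more copies on each cannot be told apart.

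**Figure D3:**
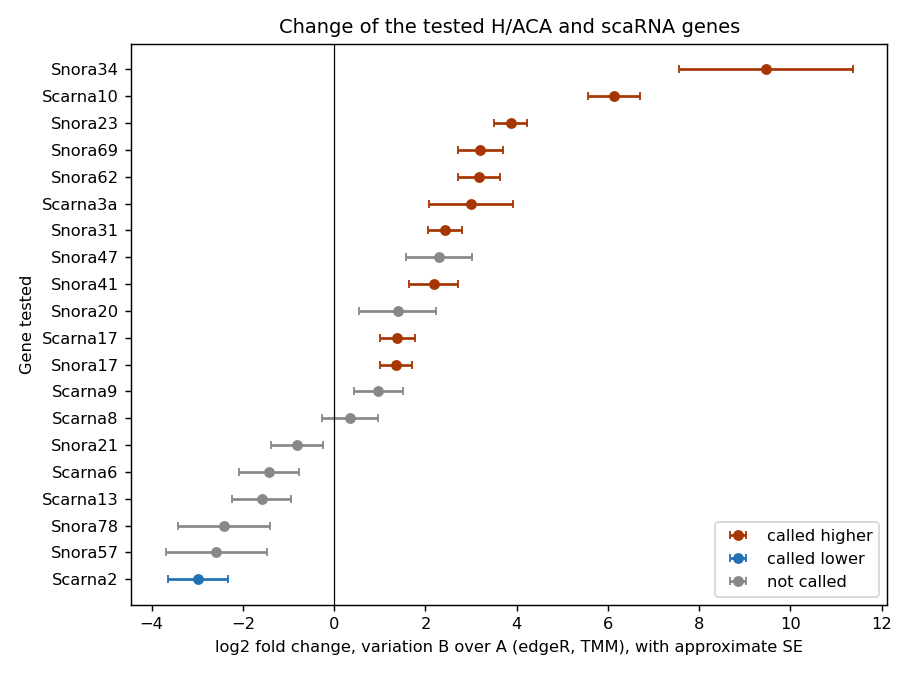
Log2 fold change of variation B over variation A for the 20 tested genes (horizontal axis, edgeR with TMM scaling), with bars of approximate SE. The 10 genes called higher run from Snora17 at 1.36 to Snora34 at 9.47, and Scarna2 at -2.98 is the only gene called lower.

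The 3 Snora genes with the most counts in variation B were Snora31, Snora62 and Snora23. Being picked by their level in variation B, they were likely to be lower in variation A. Their CPM is on library totals, where the median of all genes tested was also higher in variation B. Snora31, which lies in an intron of Tpt1, the gene of a translationally controlled tumor protein, had a CPM of 13.9, 17.8 and 20.2 in variation A and of 317 and 221 in variation B. It rose by a log2 fold change of 2.43 (SE 0.38, edgeR adjusted p = 0.00534). The 3 libraries of variation A lay close together and far below both libraries of variation B. The call was lost only without B1, at an adjusted p of 0.0528.

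Snora62, hosted by the ribosomal protein gene Rpsa, had a CPM of 19.6, 5.33 and 3.37 in variation A and of 258 and 191 in variation B. It rose by 3.18 (SE 0.46, edgeR adjusted p = 0.00403). Here A1 was the highest library of variation A, and still far below variation B. Without A1 the log2 fold change was 3.94. Snora23, in the import receptor gene Ipo7, had a CPM of 3.48, 3.55 and 3.37 in variation A, from 8, 16 and 4 counts, and of 168 and 120 in variation B. It rose by 3.87 (SE 0.36, edgeR adjusted p = 0.000667). On TMM totals its CPM in variation A was 3.97, 6.22 and 5.92.

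Snora69, in the ribosomal protein gene Rpl39 on the X chromosome, had 4, 15 and 2 counts in variation A and 1847 and 1091 in variation B. Its CPM went from 1.74, 3.33 and 1.68 to 84.5 and 47.5, a log2 fold change of 3.20 (SE 0.49, edgeR adjusted p = 0.00504). Without A2 the log2 fold change was 4.03. Snora69, Snora62 and Snora23, together with Scarna10, were called higher under each of the 15 alternatives that were run for them.

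Snora17 and Snora41 rose less. Snora17 had a CPM of 9.13, 9.55 and 10.1 in variation A and of 80.7 and 58.8 in variation B (log2 fold change 1.36, SE 0.35, edgeR adjusted p = 0.0264). Snora41, in the elongation factor gene Eef1b2, had 3, 8 and 2 counts in variation A and 587 and 342 in variation B (log2 fold change 2.18, SE 0.54, edgeR adjusted p = 0.0238). Neither gene's groups overlapped, but both calls were lost when A2, A3, B1 or B2 was left out, with edgeR adjusted p of up to 0.214 for Snora17 and 0.179 for Snora41, and in the test against a fold change of 2 (adjusted p = 0.283 and 0.103).

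Snora34 had 0 counts in all 3 libraries of variation A and 270 and 143 in variation B. It was called higher (edgeR adjusted p = 0.0183). Against the limit of 3 counts over the group it was at least 8.69-fold higher on TMM totals and at least 24.5-fold higher on library totals, while its fitted log2 fold change of 9.47 depends on the prior count. The call was lost without A2, B1 or B2, with an adjusted p of up to 0.0997. Only its last 46 bases, from base 93 to 138, are free of the microRNA gene Mir1291, which had 0 counts in every library. This stretch, at the 3′ end, is shown because it is the part on which a read could be counted, in lower case throughout.
Snora34 bases 93 to 138: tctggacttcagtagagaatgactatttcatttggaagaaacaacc

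Snora57 differed widely within variation A. It had 23, 866 and 34 counts in variation A and 959 and 920 in variation B, which is a CPM of 10.0, 192 and 28.6 against 43.9 and 40.03. On this scale A2 lay above both libraries of variation B, and A1 and A3 lay below them. On TMM totals the CPM was 11.4, 337 and 50.4 in variation A and 23.4 and 21.8 in variation B, so that A3 lay above variation B too. Snora57 was not called (log2 fold change -2.58, SE 1.11, edgeR adjusted p = 0.119). Without A2 its log2 fold change was -0.21 (adjusted p = 0.861), and without A1 it was called lower at -3.10 (adjusted p = 0.000625).

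The remaining Snora genes held fewer counts. Snora47, in Zbed3, had 6, 3 and 0 counts in variation A and 456 and 227 in variation B, and missed the threshold (log2 fold change 2.30, edgeR adjusted p = 0.0505). It was called higher in 6 of 15 alternatives, among them RLE scaling, library totals and no filter, and without A1 its log2 fold change was 3.30 (adjusted p = 0.00640). Snora21, in the ribosomal protein gene Rpl23, had a CPM of 3.04, 5.77 and 5.90 in variation A and of 10.4 and 5.83 in variation B, which overlapped (log2 fold change -0.82, edgeR adjusted p = 0.316). Snora20 had 3, 2 and 0 counts against 75 and 128, and Snora78 had 1, 10 and 4 against 34 and 13, and neither was called. On library totals Snora20 was called higher at a log2 fold change of 2.81 (edgeR adjusted p = 0.0271). Without A1, Snora78 was called lower at -2.92 (edgeR adjusted p = 0.0495). The 4 genes counted but not tested were Snora30 with 2, 6 and 1 counts in variation A and 36 and 16 in variation B, Snora36b with 0, 1 and 0 against 9 and 18, Snora2b with 0, 0 and 0 against 9 and 16, and Snora15, which had 9 counts in B1 alone.

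**Figure D4:**
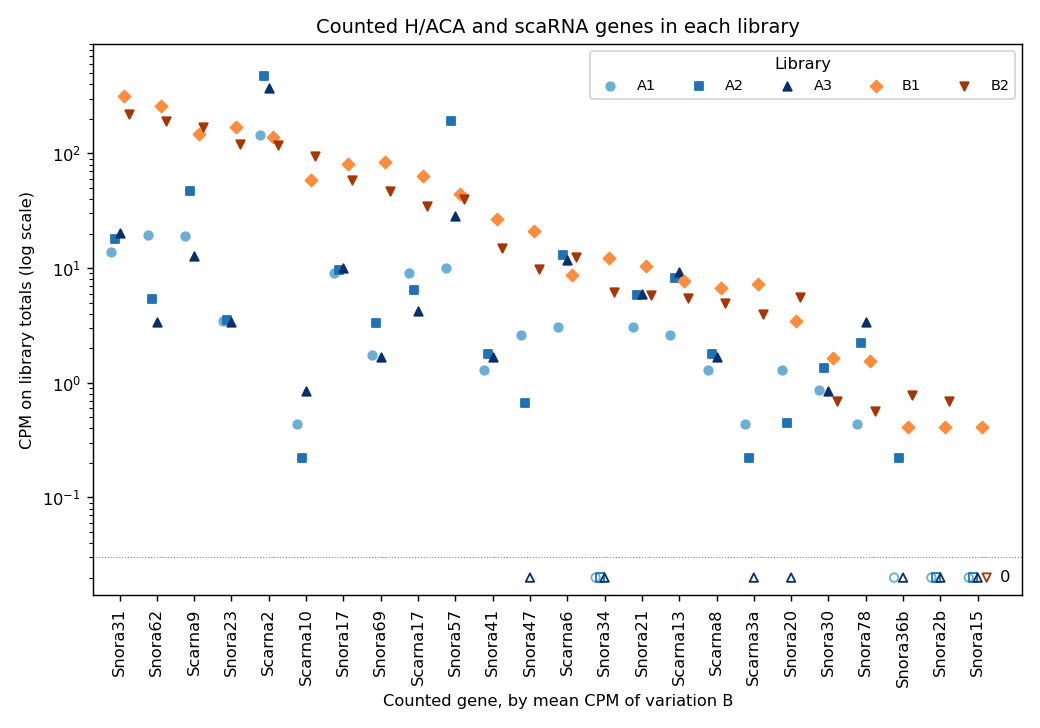
CPM on library totals (vertical axis, log scale) of the 24 counted genes in each of the 5 libraries, ordered by their mean in variation B, with open marks below the dotted line for 0 counts. Snora31 stands at 317 and 221 in variation B and at 13.9 to 20.2 in variation A, whereas Scarna2 is as high or higher in variation A, with 472 in A2.

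Among the scaRNAs, those of the C/D kind divided. Scarna2 lies at chr3:108554338-108554751 on the minus strand and is the longest of the tested genes, with 414 bases. It had a CPM of 144, 472 and 370 in variation A and of 139 and 119 in variation B, so that A1 lay just above variation B. It fell by 2.98 on the log2 scale (SE 0.66, edgeR adjusted p = 0.0166). The call was lost under library totals, where the log2 fold change was -1.35 (adjusted p = 0.0691), in the test against a fold change of 2 (adjusted p = 0.0528), and without A3, B1 or B2, with an adjusted p of up to 0.150. Its last 60 bases, with the D box in capitals, end the gene without the ACA box.
Scarna2 last 60 bases: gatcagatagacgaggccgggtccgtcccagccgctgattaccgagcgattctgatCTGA

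Scarna9, which also guides modification of the U2 small nuclear RNA, was not called. Its CPM was 19.1, 47.1 and 12.6 in variation A, and 147 and 171 in variation B (log2 fold change 0.97, SE 0.54, edgeR adjusted p = 0.211). It was called higher without A2, at a log2 fold change of 2.03, and on library totals, at 2.56 (edgeR adjusted p = 0.0156 and 0.0114). Scarna17, also of the C/D kind, had 21, 29 and 5 counts in variation A and 1391 and 797 in variation B. It was called higher at 1.39 (SE 0.38, edgeR adjusted p = 0.0342), a call lost at equal depth, in the test against a fold change of 2, with the replicate block (adjusted p = 0.134) and without A2, A3, B1 or B2, with an adjusted p of up to 0.300.

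The scaRNAs of mixed kind were Scarna10, known as a guide for the U5 small nuclear RNA, and Scarna6. Scarna10 had 1 count in each library of variation A, and 1280 in B1 and 2182 in B2. It rose by a log2 fold change of 6.14 (SE 0.57, edgeR adjusted p = 0.000657), and the ratio of pooled counts was 72.8 on TMM totals (exact 95% interval 24.9 to 353) and 206 on library totals (70.3 to 998). These counts stand for a short part of the RNA, since bases 43 to 325 lie in exons of its host Ncapd2 or of Gm28967. The gene is at chr6:125186359-125186683 on the minus strand, and its 42 free bases at the 5′ end hold the C box letters TGATGA.
Scarna10 bases 1 to 42: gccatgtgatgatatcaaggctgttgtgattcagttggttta

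Scarna6 had a CPM of 3.04, 13.1 and 11.8 in variation A and of 8.74 and 12.4 in variation B. Its log2 fold change was -1.42 (SE 0.66, edgeR adjusted p = 0.142). A1 was the lowest library on this scale. On TMM totals the CPM was 3.47, 22.9 and 20.7 in variation A and 4.66 and 6.75 in variation B, and without A1 the gene was called lower, at -1.84. Without A2 the log2 fold change was -0.74 (edgeR adjusted p = 0.575), and on library totals it was 0.18 (adjusted p = 0.797).

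The 3 tested scaRNAs of the H/ACA kind were scarce. Scarna3a had 1, 1 and 0 counts in variation A and 159 and 92 in variation B, from the 75 bases that Mir1843b does not cover. It was called higher at a log2 fold change of 2.99 (SE 0.92, edgeR adjusted p = 0.0464), and the ratio of pooled counts was 7.92 on TMM totals (exact 95% interval 2.17 to 65.8). The call was lost without A2, A3, B1 or B2, under DESeq2, upper-quartile scaling and the test against a fold change of 2, with the replicate block (adjusted p = 0.176) and with no filter, with an adjusted p of up to 0.232 over the alternatives. Scarna8, with a CPM of 1.30, 1.78 and 1.68 against 6.68 and 4.96, and Scarna13, with 2.61, 8.22 and 9.27 against 7.68 and 5.44, were not called (log2 fold changes 0.34 and -1.59, edgeR adjusted p = 0.704 and 0.105). On library totals Scarna8 was called higher at 1.86 (edgeR adjusted p = 0.0223). Without A1, Scarna13 was called lower at -1.98 (edgeR adjusted p = 0.00237).

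Per length the order of the genes also differed. Among the 17 counted genes that share no base, the highest mean CPM per kilobase in variation A was that of Scarna2, with 794 ± 405 (SD, n = 3), followed by Snora57 with 520 ± 678, Scarna9 with 375 ± 262 and Snora31 with 133 ± 24.5. The ranges of these first 3 over the libraries overlapped, although Scarna2 lay above Scarna9 in each of the 3 libraries. In variation B the order was Scarna9 with 2268 ± 239 (SD, n = 2), Snora31 with 2069 ± 525, Snora62 with 1506 ± 320, Snora23 with 782 ± 187, Scarna17 with 622 ± 259, Snora17 with 528 ± 117 and Snora69 with 504 ± 200, with Scarna2 in place 8 at 311 ± 33.3. In variation B the libraries of Scarna9 and Snora31 overlapped, as did those of Snora31 and Snora62, of Snora23 and Scarna17, and of Scarna17, Snora17 and Snora69 with each other. Over the 24 counted genes Spearman's rho of the counts was 0.97 between B1 and B2 and between A2 and A3, 0.91 between A1 and A2, 0.84 between A1 and A3, and 0.61 to 0.80 between libraries of different variations. These genes are not independent replicates and the libraries of a variation share their preparation. Spearman's rho of the log2 fold change with length over the 20 tested genes was 0.01, and -0.11 without Scarna10. The 4 genes over 200 bases, all of them Scarna genes, had a median log2 fold change of -1.51, with Scarna10 as the only positive value. The 16 shorter genes, which include every tested Snora gene, had a median of 1.79. The split by length is thus in part a split by family. These are descriptions with no test.

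At 10 counts or more, 7, 13 and 7 genes were seen in A1 to A3 and 21 and 23 in B1 and B2, of which 5 in all libraries. When every library was drawn at random to the smallest total, these numbers were 6, 6, 7, 13 and 13. The gap between the variations was thus narrower at equal depth, where variation B still showed more of the genes. No such number over all genes stands beside it. On library totals the median of all genes tested was also higher in variation B, so this is a description only.

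Most of the genes sit within a host, which gave a comparison of counts on the guide RNA gene with counts on the exons of its host. Such counts do not tell excised or spliced RNA from unspliced RNA. A host on the same strand was found for 45 of the 51 genes, with 40 distinct hosts, of which 11 of the 45 lie in ribosomal protein genes and 8 in small nucleolar RNA host genes. Of the hosts 35 were tested, with a median log2 fold change of -0.14, 2 called higher and 6 lower (5.71% and 17.1%, beside 11.0% and 12.4% of all genes tested). The log2 ratio of summed guide RNA counts to summed host exon counts was -4.98, -3.44 and -3.73 for A1 to A3, and -1.82 and -2.24 for B1 and B2. Both libraries of variation B lay above all of variation A (difference 2.02, exact permutation test, p = 0.1). The per-gene median of this ratio over the 20 counted genes with a host moved the same way, by 1.66 (exact permutation test, p = 0.1), whereas over all 45 genes, most of them at 0 counts, it moved by -3.49.

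For 14 tested genes the host was tested too. The median log2 fold change of these 14 was 2.36 for the guide RNA and -0.05 for the host. The ratio to the host was higher in both libraries of variation B than in all of variation A for 8 of the 14 and lower for 0 (the plot of guide RNA counts against host counts). Among 247 other tested genes that lie inside a tested host, the ratio was higher in this sense for 40.1% and lower for 23.9%, and among the 33 Snord genes of these for 72.7% and 9.09%. For 7 of the 14 the guide RNA was called higher and its host was not called in either direction. Over all genes tested, 11.0% were called higher. For other genes inside a host such calls were not counted, so this count and the one below are descriptions only. Of the 14, 8 had passed the filter only through variation B, and the counts rest largely on these. Among the other 6, the median log2 fold change was 1.70 for the guide RNA and -0.36 for the host, the ratio was higher for 3 (Snora23, Snora62 and Snora31), and 2 guide RNAs (Snora23 and Snora31) were called higher with a host that was not called.

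Snora62 and its host moved apart, since Rpsa had 166, 571 and 38 counts in variation A and 817 and 1299 in variation B and was called lower (log2 fold change -2.27, edgeR adjusted p = 0.0267). Snora31 had 32, 80 and 24 counts against 57, 227 and 20 for Tpt1 in variation A, and 6937 and 5072 against 1022 and 1502 in variation B. The intronic RNA was thus below the host in A1 and A2, slightly above it in A3, and several times above it in variation B. Ncapd2, a condensin subunit gene that hosts Scarna10, had a CPM of 121, 115 and 121 in variation A and of 247 and 253 in variation B. It was not called, and its log2 fold change on the TMM scale was of the other sign (-0.45, edgeR adjusted p = 0.308).

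For Snora69 in Rpl39, Snora20 in Tcp1, Scarna9 in Cep295, Scarna8 in Haus6, Snora21 in Rpl23 and Scarna6 in Atg16l1 the ratios to the host overlapped between the variations. Of these only Snora69 was itself called, and Rpl39 had a log2 fold change of 1.72 (edgeR adjusted p = 0.0546).

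**Figure D5:**
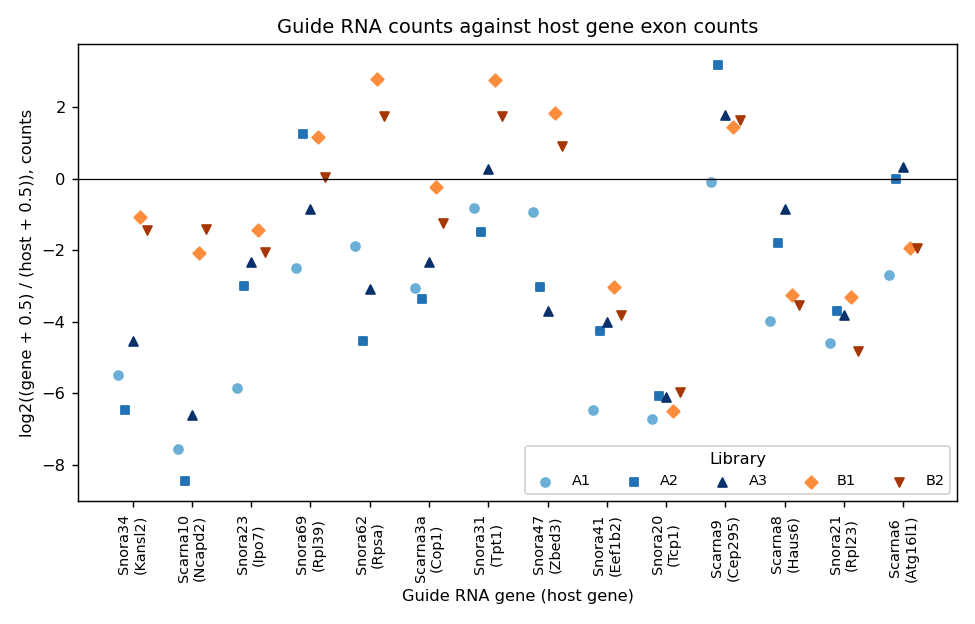
Log2 of the guide RNA count over the exon count of its host (vertical axis, 0.5 added to each) in the 5 libraries, for the 14 tested genes whose host was tested, ordered by the fold change of the guide RNA. In 8 of the 14 both libraries of variation B lie above all 3 of variation A, and in none below.

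The messenger RNAs of the proteins that bind these RNAs were compared in the same way. Of 9 genes for H/ACA particle proteins and assembly factors, all tested, edgeR called only Ruvbl2, a helicase of the assembly complex. It was lower (log2 fold change -1.60, edgeR adjusted p = 0.0277), and the median of the 9 was -0.79. Of all genes tested, 12.4% were called lower and 11.0% higher, so 1 of 9 lower is near that share. Dkc1, the pseudouridine synthase, had a CPM of 40.4, 15.8 and 13.5 in variation A and of 28.9 and 54.1 in variation B. Its mean CPM was higher in variation B, whereas its log2 fold change on the TMM scale was -0.56 (edgeR adjusted p = 0.334). Gar1 (-1.05), Nhp2 (-0.99), Naf1 (-0.79), Shq1 (-1.03), Nop10 (-0.54), Nufip1 (0.01) and Ruvbl1 (0.80) were not called. At an unadjusted p under 0.05, edgeR gave 4 of the 9 as lower and 0 as higher, where this held for 20.3% and 19.7% of all genes tested, and DESeq2 called 1 lower. Of 8 genes for Cajal body proteins, 7 were tested, with a median log2 fold change of -0.72. Of these 7, edgeR called 0, where it called 11.0% of all genes tested higher and 12.4% lower. At an unadjusted p under 0.05, 3 of the 7 were lower and 0 higher, and DESeq2 called 0. Smn1 (0.51) and Gemin2 (0.44) had positive log2 fold changes. Coil, the marker protein of the Cajal body, had -0.72, and Wrap53, which binds the Cajal body box, had -1.38 (edgeR adjusted p = 0.0641).

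8 of the 51 genes overlap an annotated microRNA gene, among them Scarna13 with Mir3069, Scarna3a with Mir1843b, Scarna3b with Mir1843a, Snora34 with Mir1291 and Snora36b with Mir664. These microRNA genes had 0 counts in every library except Gm49347, which overlaps Snora74a and had 5 counts in B1 and 63 in B2. A read on the overlap was given to neither gene, so that these values cannot say which RNA was present.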

How the data were processed

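Surface-seq libraries of EL4 cells were grouped by the names in the sample labels into 3 of variation A and 2 of variation B. Per the submitters' processing notes and the methods, the authors used Trimmomatic 0.36 for trimming, STAR 2.7.3a for alignment to GRCm38 and featureCounts 1.6.4 for counting on GENCODE M24 exons. The deposited values are whole-number counts per gene. Counting ignored strand and dropped reads with several alignments or over more than 1 gene. Symbols, types and transcript sequences were matched by identifier to GENCODE M21 (55144 of 55385 genes). The members and lists were chosen with earlier results of these data known.

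CPM was computed on library totals. The variations were compared with the quasi-likelihood test of edgeR 4.0.16 (R 4.3.3, genes filtered by filterByExpr, TMM scaling, Benjamini-Hochberg adjustment), which was tested on simulated data, and with DESeq2 1.42.0 as an alternative. Shares and ratios were compared by exact permutation over the 10 splits of 3 against 2 libraries (Python 3.11.15). A host is the gene on the same strand that spans the whole gene, protein-coding genes first, then the shortest. Overlap was counted in exon bases of the count tables.

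Named by rule, with 15 genes in all, were the 8 genes with the highest mean CPM in variation B, the 5 highest in variation A, each tested Scarna gene, the 6 largest rises among genes counted in every library of variation A, each gene called lower, the top gene of every library, Terc and the particle proteins. Snora34, Snora47, Snora21, Snora20, Snora78, the untested and the uncounted genes were named after their values were seen. The split of genes by how they passed the filter and the ratios of other genes to their hosts were added after seeing the data. Alternatives covered scaling, the filter on low counts, the tool, the threshold, depth, overlap, denominators, the replicate block and each library left out. No cell of the count tables was left without a sample. Sequence from chromosome 18 and that of Snora62 are not reported here.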

Additional observations from a re-analysis of the deposited data

How the results depend on the processing

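The count of 10 genes called higher was 9 to 14 under the other scalings, filters and DESeq2. The 14 came from library totals, where 5668 of all 10287 genes tested were called higher and 301 lower. In the main fit these were 1135 and 1276. Under the remaining settings the count was 9 to 11, beside 956 to 1221 of the 9799 to 25327 genes tested. The 1 gene called lower, Scarna2, was called under each of these settings but library totals, which gave 0 lower and a median log2 fold change of 2.86. Against a fold change of 2, edgeR called 6 higher and 0 lower, beside 289 and 388 of all 10287 genes tested. At equal depth 7 of 13 tested genes were called higher and 1 lower, with a median of 2.08, beside 781 and 945 of all 7934 genes tested. Leaving out each library in turn gave 4 to 11 genes higher and 0 to 5 lower. Without A1 they were 11 and 5, without A2 6 and 1, without A3 6 and 0, without B1 4 and 0, and without B2 5 and 0. Over all genes, 2526 of 12127 tested were called higher and 1821 lower without A1. Without A2 these were 420 and 442 of 12149, and without A3 431 and 466 of 12064. Of these 3 fits, the one without A1 gave the most calls for the guide RNA genes and for all genes alike. Leaving out B1 or B2 leaves 1 library in variation B, where the median log2 fold change of the guide RNA genes was 1.40 and 1.65. Calls in these fits were fewer than in the main fit, for the guide RNA genes and for all genes alike. With the replicate number as a block, 8 genes were called higher and 1 lower (median 1.34), beside 761 and 813 of all 10287 genes tested. Same-numbered libraries showed no shared deviation (r = -0.10 for A1 with B1 and -0.03 for A2 with B2), so the numbers were not taken as pairs. The log2 fold change of Scarna6 was 0.18 under library totals, and the ratio to the host moved by -3.49 as a median over all hosted genes, most of which had 0 counts. With minimums of 1, 3 and 30 counts the mean number of genes seen in variation A was 19.3, 15 and 4.33, and at equal depth 13 genes were seen in variation B. Among named genes, 183 values were unchanged in direction and call, 6 gained the call, 32 lost it and 1 changed sign. Depth limits variation A most, where 3 counts in A3 are a CPM of 2.53.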
